A study of Homo sapiens with 3 samples.

Results

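The genes described here are 7 SR proteins (SRSF1, SRSF2, SRSF3, SRSF5, SRSF6, SRSF7 and SRSF9), the kinases CLK1 and CLK4, and RSRP1, the arginine and serine rich protein 1. They were chosen by gene symbol as transcripts known for retained introns or poison exons, with their values on these arrays already known, so all values below are a description and carry no test. All 10 genes were found, on 11 of 33297 probe sets, among 18417 genes that had a probe set of their own. The arrays came from H9, an established human embryonic stem cell line. The groups were polysome-bound RNA (1 array), polysome-unbound RNA (1 array) and total RNA (1 array), and the labels give no treatment, time or genotype for any of them. With 1 array per RNA source, no difference has a replicate check, and no p-value or error can be given.

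SR proteins carry RNA recognition motifs and a domain of repeated arginine and serine. They bind exons in pre-mRNA, recruit the spliceosome and accompany mRNA out of the nucleus. Kinases of the SRPK family phosphorylate them in the cytoplasm and kinases of the CLK family do so in the nucleus, which sets where they reside and how they act on splicing. Many SR genes limit their own output by splicing in a poison exon, which brings a premature stop codon and exposes the transcript to nonsense-mediated decay. CLK1 and CLK4 transcripts are known to keep introns and to be held in the nucleus in that form until they are spliced. A probe set of these arrays combines the isoforms that its probes match, so coding, poison-exon and intron-retaining forms could not be told apart.

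Sequence around the annotated transcription start was taken for 9 of the 10 genes from RefSeq (GRCh38.p14), as a description. Relative to the array medians, though not as deposited, 9 of the 10 transcripts lay in the same direction between the bound and unbound arrays. SRSF2 had no entry in the table used. Each line gives 40 bases before the start and 25 from it, 5′ to 3′, on the gene's own strand. Capitals mark the letters CCATTT, a motif picked after the sequences were read. Shown are the 5 genes that hold it, RSRP1, which had the largest differences, and SRSF9, which lay opposite to the others relative to those medians.
SRSF1, minus strand, chr17:58007222-58007286: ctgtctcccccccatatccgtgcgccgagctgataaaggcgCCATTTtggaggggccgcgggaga
SRSF3, plus strand, chr6:36594322-36594386: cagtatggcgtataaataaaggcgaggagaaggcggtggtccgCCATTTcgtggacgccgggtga
SRSF5, plus strand, chr14:69767102-69767166: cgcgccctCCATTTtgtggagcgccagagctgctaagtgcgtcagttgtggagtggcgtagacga
CLK1, minus strand, chr2:200864634-200864698: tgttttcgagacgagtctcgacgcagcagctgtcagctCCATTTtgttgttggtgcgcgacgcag
CLK4, minus strand, chr5:178627026-178627090: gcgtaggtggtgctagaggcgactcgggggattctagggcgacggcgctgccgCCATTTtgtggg
RSRP1, minus strand, chr1:25338230-25338294: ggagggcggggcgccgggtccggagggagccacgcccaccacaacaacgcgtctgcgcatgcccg
SRSF9, minus strand, chr12:120469724-120469788: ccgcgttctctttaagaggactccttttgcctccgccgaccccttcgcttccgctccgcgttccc

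Searched on both strands within the same window, CCATTT was present in 5 of the 9 genes and in 3.07% of all 35116 annotated starts. Over the full 300 bases held around each start it was present in the same 5 genes and in 15% of all starts. A gene is counted by any of its starts, while the shares are per start. The motif was picked from these sequences, so nothing is read from its excess in either window. In SRSF1, SRSF3 and CLK4 it lay just past the start, at bases 2, 4 and 14, and in CLK1 and SRSF5 it began before it, at bases -2 and -32. CLK1 and SRSF7 each have a further start in the table, and for CLK1 the one shown holds the letters. Over those 300 bases, TGACGT, the core of a cyclic AMP response element, was present in CLK4, SRSF1, SRSF3 and SRSF5, and in 7.98% of all starts. The GC box GGGCGG was present in CLK1, CLK4, RSRP1, SRSF6 and SRSF7 against 45% of all starts, and the TATA box TATAAA in SRSF3 and SRSF7 against 11.5%. GCGCATGC, the letters of an NRF1-type site, was present in RSRP1 and SRSF7 against 3.05%, and the CCAAT box in SRSF3 against 34.6%. A C at the start followed by 4 bases that are C or T, as in mRNAs with a terminal oligopyrimidine tract, was found in SRSF9 alone among the 9 genes and in 4.07% of all starts. Such matches describe letters only and show no binding.

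The arrays differed in scale. Over the 12064 genes past a filter on mean level, the median log2 value was 7.23 with bound RNA, 5.96 with unbound RNA and 6.20 with total RNA. A relative difference below is the log2 difference as deposited minus the offset of these medians, which was 1.26 for bound minus unbound, 1.03 for bound minus total and -0.23 for unbound minus total. Genes are called apart from 2-fold on, a log2 difference of 1. Of 14 measured pluripotency markers, 14 were above background on every array, with the stem cell protein LIN28A at 11.50 in bound, 10.98 in unbound and 11.10 in total RNA. Background was the 95th percentile of 481 tissue-restricted genes on the same array, at 4.39 in bound, 3.56 in unbound and 3.75 in total RNA. Of markers of other cells, 10, 11 and 10 of 12 for fibroblasts and feeders were above background in bound, unbound and total RNA, 7, 7 and 6 of 8 for trophoblast and amnion, and 9, 10 and 10 of 13 for the germ layers. Their part in the results was not tested. In bulk RNA, fewer cells with a transcript and less of it per cell cannot be told apart. The bound and unbound pools were purified with the PureLink kit and total RNA with the RNeasy Plus kit, so kit and RNA source cannot be told apart in any comparison with total RNA.

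All 10 genes were above background on all 3 arrays, and they remained so when the line was set at the 99th percentile. The nearest to the line was CLK4 on the total RNA array, 1.79 above it on the log2 scale. As deposited, total RNA gave the lowest of the 3 values for 9 of the 10 genes, and the exception was SRSF9. Over all genes past the filter that order held for 30%.

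**Figure D1:**
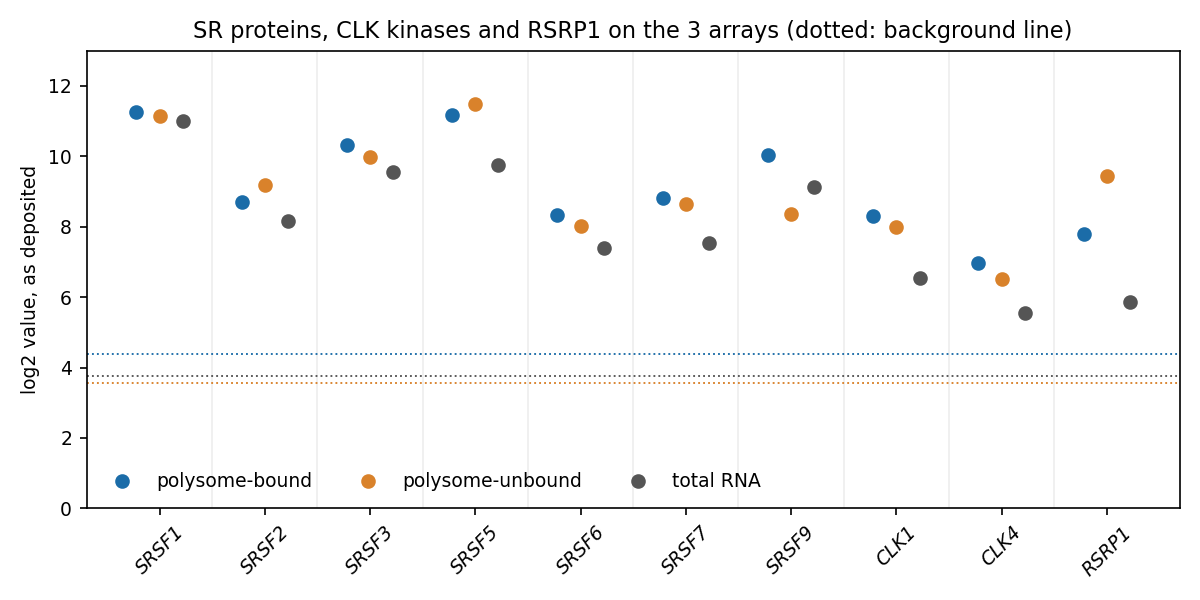
Log2 values as deposited (vertical axis) of the 10 genes (horizontal axis) on the polysome-bound, polysome-unbound and total RNA arrays, 1 point per array, with the background line of each array dotted in its colour. Every point lies above its line, and total RNA is lowest for all genes but SRSF9.

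Bound set against unbound RNA shows how the difference of each transcript compares with that of other genes on those arrays. It does not give the rank of a transcript by level on either array. The share of each transcript found in polysomes was not measured. Relative to the array medians, 9 of the 10 genes lay on the unbound side, and for 5 of them bound RNA was lower by 2-fold or more: RSRP1, SRSF2, SRSF5, SRSF1 and SRSF7. Of all 12064 genes, 9.92% were so and 53.9% lay below 0. None of the 10 reached 2-fold higher in bound RNA, against 6.33% of all genes, and SRSF9 alone was above 0, against 46.1%. Since the genes were chosen with these values known, nothing is read from such counts. The median over the 10 genes was -1.02, and over all genes -0.07. As deposited, 7 of the 10 genes lay above 0 and 3, RSRP1, SRSF2 and SRSF5, below. The orders of arrays with bound above unbound RNA as deposited held for 64%, 25.7% and 4.07% of all genes. The deposited median was 0.24 over the 10 genes and 1.20 over all genes, with 1 gene 2-fold or more higher (SRSF9) and 1 lower (RSRP1), against 61.4% and 1.56% of all genes.

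RSRP1, whose cellular role is little known, was furthest to the unbound side. It had a log2 value of 7.78 in bound, 9.43 in unbound and 5.86 in total RNA. The unbound array was the highest of the 3 and total RNA the lowest. Bound minus unbound was -1.65 as deposited and -2.91 in relative terms, a level 7.54-fold lower in bound RNA. Across all 12064 genes this relative difference lay at percentile 0.713. RSRP1, SRSF2 and SRSF7 were the genes of the 10 at 2-fold or more under each of the array median, lowess and quantile scalings.

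SRSF2, an SR protein that regulates its own transcript through alternative splicing and decay, had log2 values of 8.69, 9.19 and 8.17 on the bound, unbound and total RNA arrays. It was thus higher on the unbound than on the bound array even as deposited. Bound minus unbound was -0.50 as deposited and -1.76 relative, 3.39-fold lower in bound RNA. SRSF5, an SR protein of the nuclear speckles, had 11.18 in bound, 11.50 in unbound and 9.75 in total RNA, and the same order of arrays. Its relative difference was -1.59, and -0.32 as deposited.

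SRSF1, the founding member of the family and also a regulator of translation, had 11.27 in bound, 11.15 in unbound and 11.00 in total RNA. These values lay within 0.27 of each other as deposited. Relative to the medians, bound minus unbound was -1.14. SRSF7, an SR protein with a zinc knuckle that also serves in mRNA export, had 8.81, 8.63 and 7.55 on the same arrays and a relative difference of -1.08. Both were slightly higher in bound RNA as deposited, by 0.12 for SRSF1 and 0.18 for SRSF7, so their direction turns when the arrays are not centred.

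Just short of 2-fold were CLK1 (-0.96), SRSF6 (-0.95) and SRSF3 (-0.93), followed by CLK4 (-0.81). Their direction turns as well when the arrays are not centred, to 0.30 for CLK1, 0.32 for SRSF6, 0.33 for SRSF3 and 0.45 for CLK4. CLK1, the nuclear kinase that releases SR proteins from speckles, had log2 values of 8.302 in bound, 7.998 in unbound and 6.546 in total RNA. CLK4, a close relative of CLK1, had 6.96, 6.51 and 5.53 on those arrays. For both kinases the fractions were close to each other as deposited, and each was above total RNA. SRSF6 had 8.34 in bound, 8.02 in unbound and 7.39 in total RNA, and SRSF3, which links splicing to mRNA export, had 10.33, 9.995 and 9.56.

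SRSF9, a relative of SRSF1 with a short arginine and serine domain, went the other way. Its log2 values were 10.03 in bound, 8.37 in unbound and 9.13 in total RNA. Alone among the 10 genes it was lowest in unbound RNA. Bound minus unbound was 1.66 as deposited, 3.15-fold higher in bound RNA, and 0.39 relative to the array medians.

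Scaling moved SRSF1, SRSF5 and SRSF3 most. By level, SRSF1 lay at percentile 99.4 of genes past the filter in bound and 99.2 in unbound RNA. SRSF5 lay at 99.2 and 99.4, and SRSF3 at 97.0 and 98.3. With the trend of the difference on signal level removed by lowess, bound minus unbound was -0.20 for SRSF1, -0.59 for SRSF5 and -0.47 for SRSF3, and with quantile normalization it was 0.044, -0.35 and -0.34. RSRP1 stayed at -2.91 and -2.79 under those settings, SRSF2 at -1.70 and -1.63, SRSF7 at -1.06 and -1.03, and CLK1 at -1.02 and -0.99. Quantile normalization left 3 of the 10 genes at least 2-fold lower in bound RNA, against 8.66% of all genes.

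**Figure D2:**
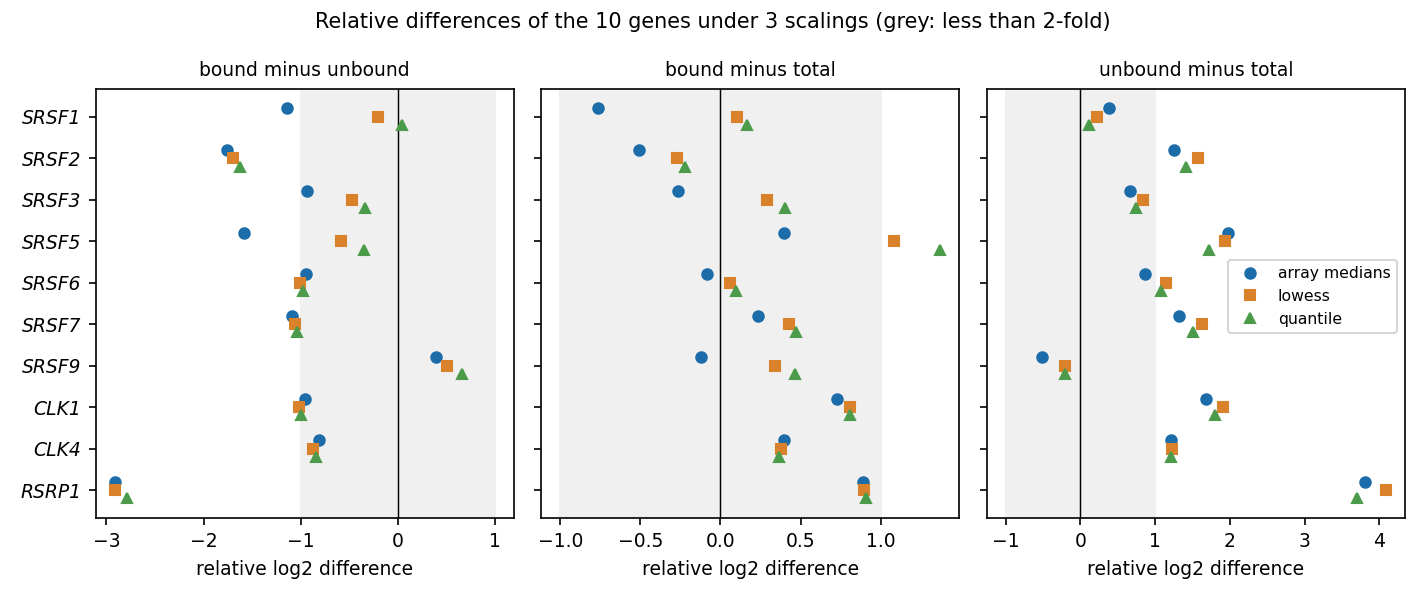
Relative log2 differences (horizontal axes) of the 10 genes (rows) for bound minus unbound, bound minus total and unbound minus total RNA, with 1 marker for each of 3 scalings and the range under 2-fold in grey. SRSF1 and SRSF5 move toward 0 in the left panel under lowess and quantile scaling, while RSRP1 lies at -2.91 there and at 3.81 in the right panel with array medians.

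Set against total RNA, most of these transcripts stood higher among all genes on the unbound array. Unbound minus total was above 0 for 9 of the 10 genes in relative terms, against 45.6% of all genes, and 6 were at least 2-fold higher, against 8.1%. None was 2-fold lower, against 9.94%, and SRSF9 alone lay below 0, against 54.4%. The median was 1.23, and -0.07 over all genes. Without centring, 5 genes reached 2-fold higher, against 5.42% of all genes, and none 2-fold lower, against 16%, with CLK4 just short at 0.97.

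The 6 genes were RSRP1 (3.81 relative), SRSF5 (1.98), CLK1 (1.69), SRSF7 (1.32), SRSF2 (1.26) and CLK4 (1.21). In relative folds RSRP1 was 14-fold, SRSF5 3.95-fold and CLK1 3.22-fold higher in unbound than in total RNA. RSRP1 ranked 8 from the top of 12064 genes, SRSF5 151 and CLK1 268. SRSF6 (0.86), SRSF3 (0.67) and SRSF1 (0.38) were higher by less than 2-fold, and SRSF9 was lower (-0.52). Over the centred, filtered, lowess and quantile settings these values ranged from 3.70 to 4.09 for RSRP1, from 1.72 to 2.06 for SRSF5 and from 1.60 to 1.91 for CLK1. SRSF6 crossed 2-fold under lowess (1.15) and quantile scaling (1.07).

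Bound minus total gave smaller values. No gene of the 10 was 2-fold apart in relative terms, against 2.66% of all genes higher and 6.41% lower. Above 0 were 5 of them, against 37.8% of all genes, and below 0 the other 5, against 62.2%. That split holds with array medians and not with other scalings. Under lowess and quantile normalization 9 of the 10 were above 0, with SRSF2 alone below at -0.27 and -0.22. As deposited 10 of 10 were above 0. The orders of arrays with bound above total RNA as deposited held for 64%, 25.7% and 4.31% of all genes. No such share is given for lowess or quantile scaling, so nothing is read from those counts. With lowess SRSF1 had 0.10, SRSF3 0.29, SRSF6 0.06 and SRSF9 0.34. RSRP1 (0.89) and CLK1 (0.73) were highest, SRSF5 and CLK4 followed at 0.39 and 0.40, and SRSF1 (-0.76) and SRSF2 (-0.51) were lowest. Without centring, RSRP1, CLK1, CLK4, SRSF5 and SRSF7 were above total RNA by 2-fold or more, against 40.1% of all genes, and none was 2-fold below it, against 0.572%. With lowess SRSF5 reached 1.08 and with quantile normalization 1.37.

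Both fractions were above total RNA in relative terms for 5 genes, RSRP1, CLK1, CLK4, SRSF5 and SRSF7, and 22.4% of all genes showed that order. Unbound RNA was the highest array in relative terms for 9 genes, against 37.1% of all. For SRSF1, SRSF2, SRSF3 and SRSF6 the order was unbound, then total, then bound. The kinases and RSRP1 were all in the first set. Under lowess and quantile scaling SRSF1, SRSF3 and SRSF6 joined it, so their place in this order rests on the scaling. The fractions share the total RNA array in these comparisons, so the values are given side by side and are not independent.

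**Figure D3:**
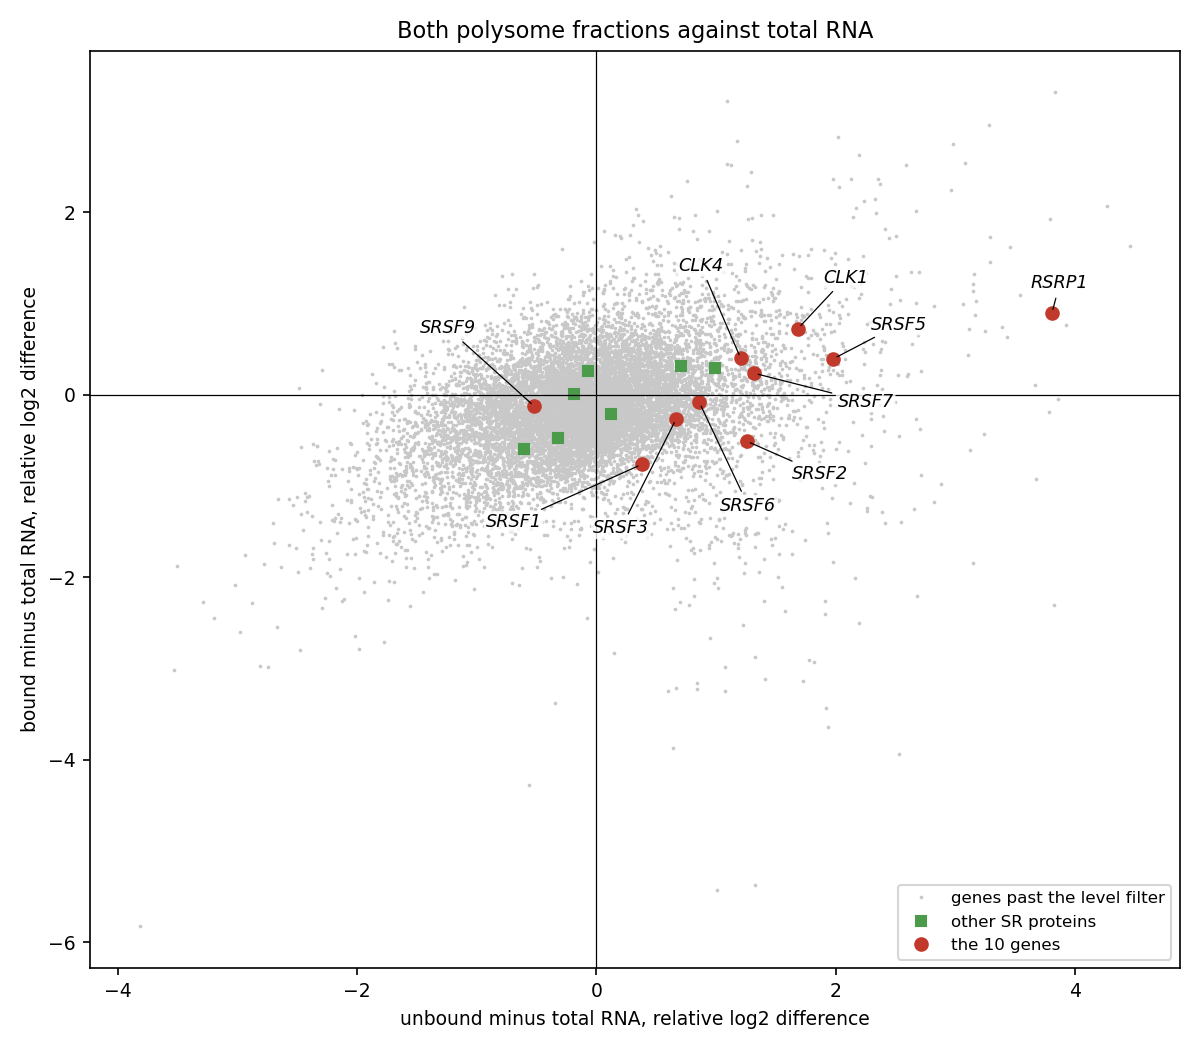
Relative log2 difference of unbound minus total RNA (horizontal) and bound minus total RNA (vertical) for 12064 genes (grey), the 10 genes (red) and 7 other SR proteins (green), with lines at 0. RSRP1 lies at 3.81 and 0.89, CLK1 and SRSF5 at 1.69 and 1.98 on the horizontal axis, and SRSF9 is the only one of the 10 left of 0. Both axes share the total RNA array.

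CLK4 has a second probe set, which matches 4 annotated sequences against 10 for the one used above. It had log2 values of 4.58 in bound, 3.33 in unbound and 3.03 in total RNA. It was above background on the bound array only, by 0.19, so it gives no firm difference. The mean of both probe sets gave CLK4 a relative unbound minus total difference of 0.86, under 2-fold. The CLK1 and CLK4 probe sets list 1 annotated sequence in common, and cross-hybridisation between them was not tested. In the annotation RSRP1 overlaps the blood group gene RHD, SRSF2 overlaps MFSD11, and SRSF9 overlaps GATC, and any signal from these neighbours could not be separated.

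Probe sets of SRSF1, SRSF2, SRSF3, SRSF6 and CLK1 list at least 1 RefSeq noncoding transcript of the gene among the sequences they match. For these 5 genes, unbound minus total lay between 0.38 and 1.69 with a median of 0.86. The other 5 genes lay between -0.52 and 3.81 with a median of 1.32. RSRP1 is among these, although RefSeq lists 18 noncoding transcripts of that gene. The split thus does not separate genes with and without noncoding forms. These ranges overlap.

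By their medians, the other SR proteins were closer to the bulk of genes than the 10 genes were. None of 7 (SRSF4, SRSF8, SRSF10, SRSF11, SRSF12, TRA2A and TRA2B) was 2-fold apart in any comparison relative to array medians. Of all genes, 6.33% were 2-fold higher and 9.92% lower for bound minus unbound, and 8.1% and 9.94% for unbound minus total. For bound minus total these shares were 2.66% and 6.41%. Under lowess or quantile scaling 1 of the 7 was 2-fold higher for unbound minus total, against 9.39% and 8.72% of all genes. The median of the 7 was -0.15 for bound minus unbound and -0.07 for unbound minus total, and with lowess these turned to 0.11 and 0.24. SRSF12 (0.99) and SRSF8 (0.70) were highest for unbound minus total, and TRA2B (-0.60) and SRSF4 (-0.32) lowest. SRSF10 had -0.07, SRSF11 -0.19 and TRA2A, a splicing activator related to SR proteins, 0.12. Their range overlaps that of the 10 genes, which was -0.52 to 3.81, and the gap between the medians was not tested. The 10 genes were chosen with their values known, so nothing is read from that gap.

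The remaining kinases, the import receptor and the phosphatases of SR proteins were mixed, with a median of -0.11 for bound minus unbound that turned to 0.02 with lowess. CLK2 lay toward the unbound side, with bound minus unbound at -0.89 and unbound minus total at 0.75, and CLK3 had -0.68 and 0.34 at values near background. The cytoplasmic kinases SRPK1 (-0.23) and SRPK2 (0.10) were close to 0 for bound minus unbound, as was DYRK1A (0.36), and SRPK3 did not pass the filter. TNPO3, which imports phosphorylated SR proteins into the nucleus, had -0.11. Of the catalytic subunits of protein phosphatase 1, PPP1CA was on the bound side by more than 2-fold (1.28) and PPP1CC on the unbound side (-1.31), with PPP1CB at 0.15.

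Other proteins with arginine and serine repeats split in both directions. Of 37 measured, 5 were 2-fold or more toward unbound RNA and 4 toward bound RNA, and the median was 0.15. Of all genes, 9.92% and 6.33% were so. PNN (-2.12), a speckle and junction protein, and ZRANB2 (-1.35) were lowest, and NKTR (1.73) and the speckle scaffold SRRM2 (1.37) highest. For unbound minus total, 7 of the 37 were at least 2-fold higher and 8 lower, against 8.1% and 9.94% of all genes. The median was -0.21 and came to -0.02 with lowess. CCNL2 (2.69), a cyclin of speckles, and ARGLU1 (2.21) led, and THRAP3 (-1.60) and BCLAF1 (-1.32) were lowest.

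Other transcripts known for retained introns or poison exons also ran in both directions. Many of them also belong to other lists described here, such as CLK2, SRSF4, NKTR, CCNL2 and HNRNPL. The lists are therefore not separate from each other. Of 32 measured, 7 were at least 2-fold lower in bound than in unbound RNA and 1, NKTR, was higher, with a median of -0.44. Of all genes, 9.92% were lower and 6.33% higher. MAT2A, the methionine adenosyltransferase whose mRNA keeps an intron when methyl donor is plentiful, had -3.08, and HNRNPDL, an RNA-binding protein that regulates the splicing of its own transcript, -1.73. OGT, whose transcript has a known retained intron, was on the bound side at 0.79. Unbound minus total was at least 2-fold higher for 8 of the 32 and lower for 2, against 8.1% and 9.94% of all genes. MAT2A was at 2.71 and CCNL2 at 2.69, SNRPB at -1.62 and HNRNPL at -1.43. The median over the 32 was 0.23, and it changed to 0.37 with lowess and 0.35 with quantile normalization. The bound minus unbound median was -0.07 with lowess and 0.08 with quantile normalization, so its sign depends on the scaling.

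For the wider splicing and decay machinery the medians of unbound minus total were below 0. Of all genes, 9.94% were at least 2-fold lower and 8.1% higher in that comparison. Of 21 hnRNP proteins 6 were at least 2-fold lower and 2 higher for unbound minus total (median -0.46), led by HNRNPDL (1.22) and HNRNPA1 (1.16) and ending with HNRNPAB (-1.60). Core spliceosome proteins had 11 of 32 lower and 1 higher (median -0.66), from PRPF8 (-2.18) and SNRNP200 (-2.08) to SF3A2 (1.20). For bound minus unbound the medians of these lists were -0.21 and 0.01, and with lowess their signs turned to 0.13 and -0.04. Nonsense-mediated decay factors, which clear poison-exon transcripts, had medians of 0.39 for bound minus unbound and -0.42 for unbound minus total over 12 genes, with UPF1, the central helicase of the pathway, at 1.17 and -1.73. Over 9 heat shock genes the medians were -0.46 and -0.22, with HSPA8 at -1.92 for bound minus unbound and HSP90AA1 at -1.71 for unbound minus total.

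Relative to the array medians, nuclear noncoding RNAs had their median on the side of 9 of the 10 genes for bound minus unbound. The same held for unbound minus total, with SRSF9 the exception in both, but not for bound minus total. As deposited, the bound minus unbound medians were -2.90 for these RNAs and 0.24 for the 10 genes. Of 13 measured, 12 were at least 2-fold lower in bound than in unbound RNA (median -4.17), against 9.92% of all genes. At least 2-fold higher in unbound than in total RNA were 10 (median 1.93), against 8.1%. For bound minus total, 11 of the 13 were at least 2-fold lower (median -2.00), against 6.41% of all genes. None of the 10 genes was (median 0.08). The U4 RNA RNU4-1 had log2 values of 5.13 in bound, 9.99 in unbound and 6.40 in total RNA. Levels of the list ran from 3.47 to 11.71 in bound, from 4.84 to 12.21 in unbound and from 3.72 to 10.51 in total RNA, and 10, 13 and 12 of the 13 were above background. MALAT1, a long noncoding RNA of nuclear speckles, did not follow, at -0.11 for bound minus unbound and 0.49 for unbound minus total. The part of nuclear RNA in the values of the 10 genes was not tested.

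**Figure D4:**
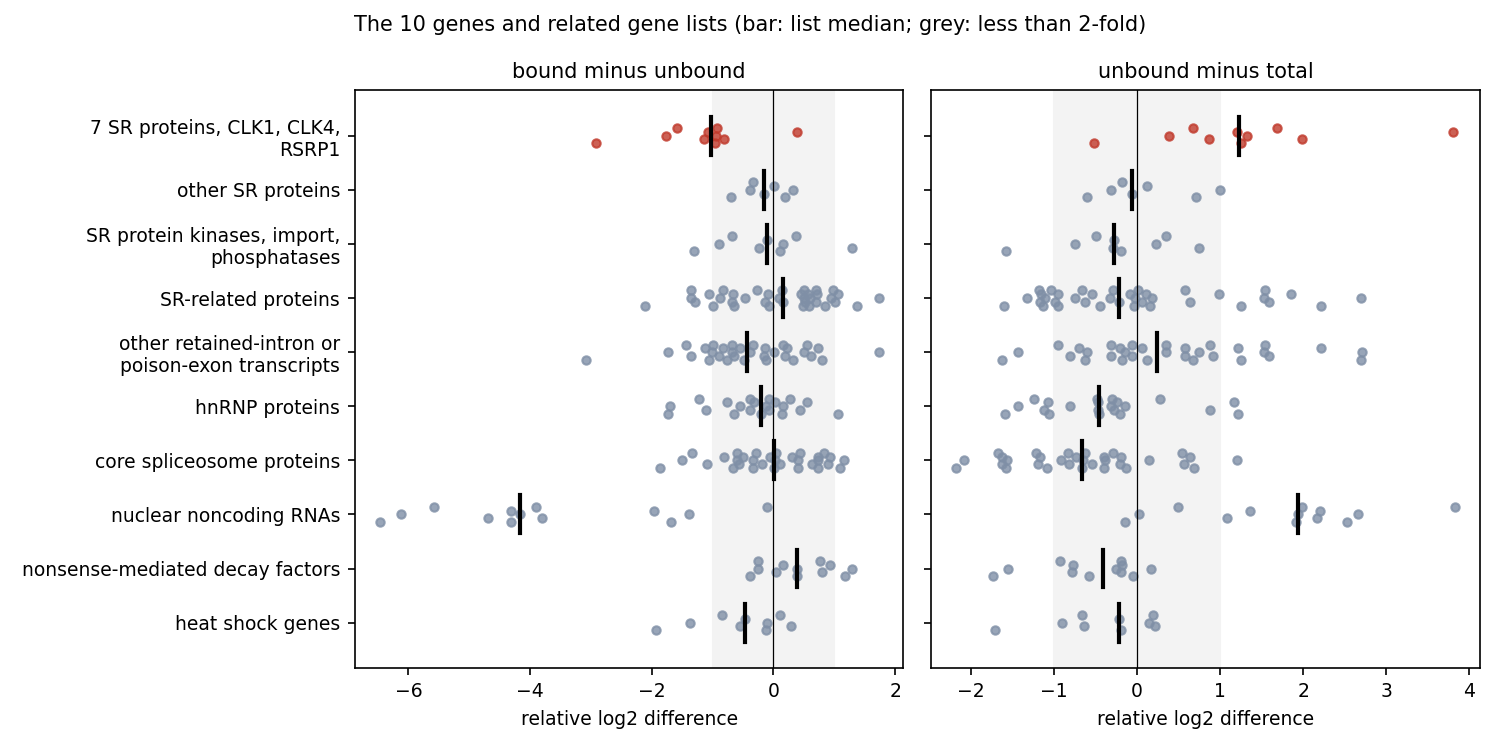
Relative log2 differences (horizontal axes) of single genes for bound minus unbound (left) and unbound minus total RNA (right). Shown are the 10 genes (red) and 9 related lists (blue-grey), some of which share genes. A bar marks each median, and the range under 2-fold is grey. The 10 genes have medians of -1.02 and 1.23, other SR proteins -0.15 and -0.07, and nuclear noncoding RNAs -4.17 and 1.93.

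Genes with the pattern most like RSRP1, the highest of the 10 for unbound minus total, and most like SRSF9, the lowest, were ranked by Euclidean distance over the 3 arrays' values relative to their medians, among 11303 protein-coding genes. The nearest to RSRP1 were ZNF626 (distance 1.04), CCNL2 (1.21), NAT9 (1.22) and ZNF776 (1.24). Their unbound minus total values were 2.37, 2.69, 2.37 and 2.37, all below the 3.81 of RSRP1. This distance also takes in signal level. In the differences alone ADHFE1 lay nearer to RSRP1 than ZNF626 did. It had -2.39 for bound minus unbound, 0.72 for bound minus total and 3.12 for unbound minus total. HNRNPH3 (0.074), STMN1 (0.11), TMEM50A (0.12) and METTL2B (0.13) were nearest to SRSF9, with unbound minus total between -0.68 and -0.34.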

How the data were processed

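RNA of H9 cells was hybridised to 3 Affymetrix whole-transcript gene arrays, 1 for each RNA source, and the labelled sample type set the groups. Values deposited by the authors are log2 expression made with Partek 6.5 and RMA, per the submitters' processing notes, with the scaling between arrays unknown. All bound values share their last decimals, as if a constant of 0.1127 to 0.1140 had been put on them, and centring cancels it. Precision is limited by the single array per source.

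Probe sets were named from GEO's platform annotation where it lists 1 symbol (19460 probe sets; 1754 list several and 12083 none). Of those, 19429 matched a RefSeq table (GRCh38.p14), used for gene class, overlaps and sequences. The probe set with the highest mean stood for each gene. Genes with a mean above 3.84, the 95th percentile of 481 olfactory, taste, keratin-associated and defensin genes, set the offsets (12064 genes). Genes were called apart at 2-fold, with no test.

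The 10 genes and all lists were chosen with earlier results of these data known. Named list genes are the 2 highest and 2 lowest for bound minus unbound and unbound minus total, with small sets named whole. Alternatives were other scalings (lowess span 0.3), filters, probe set rules and thresholds. Scripts were checked on simulated data. The scripts ran in Python 3.11.15 with pandas 2.3.3 and numpy 2.4.6, lowess came from statsmodels 0.14.6, and plots from matplotlib 3.10.9.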

Additional observations from a re-analysis of the deposited data

How the results depend on the processing

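No paired analysis was possible because each RNA source has 1 array. Of 30 differences (10 genes in 3 comparisons), all 30 kept their side of 2-fold with the stricter filter, 29 with no filter (SRSF7, bound minus unbound, just missed it) and 29 with the mean of probe sets (CLK4). As deposited, bound minus unbound turned sign for 6 genes, to 0.12 for SRSF1, 0.18 for SRSF7 and 0.30 to 0.45 for CLK1, SRSF6, SRSF3 and CLK4, and to 0.24 for the median of the 10 genes. With the constant subtracted the same 6 genes turned, SRSF1 to 0.0071 and SRSF7 to 0.065. CLK1 came to 0.19, SRSF6 to 0.20, SRSF3 to 0.22 and CLK4 to 0.34, and the median to 0.13. Quantile normalization gave SRSF1 0.044. The count at least 2-fold lower in bound than in unbound RNA (5) was 1 under either uncentred setting, where 1 gene was higher. Of all genes, 1.56% were lower as deposited and 1.76% with the constant subtracted, and 61.4% and 54.7% were higher. With lowess it was 5, against 9.33% of all genes, with CLK1 and SRSF6 in place of SRSF1 and SRSF5. After quantile normalization the count was 3, against 8.66% of all genes. It was 9 at 1.5-fold, against 22.1%, and 3 at 3-fold, against 3.88%. For bound minus total, where no gene was apart, 5 were higher under either uncentred setting, against 40.1% and 31.5% of all genes. Under lowess or quantile normalization 1 was higher, against 3.22% and 3.38%. At 1.5-fold 2 were higher and 1 lower, against 8.2% and 18.5%. For unbound minus total the count of 6 higher genes was 3 at 3-fold, against 2.56%. Why the scalings differ was not tested.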
